A study of Rattus norvegicus with 19 samples.

Results

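Sult1a1 (ENSRNOG00000019342) is the gene at one edge of the rat chromosome 1 interval that corresponds to human 16p11.2, and its read counts were followed in the male hippocampus over 4 genotypes. It was the only gene of the 32623 in the count tables to carry this symbol, and it was chosen by its own levels in the 4 groups, since it was lower with the deletion of the interval and not higher with the duplication. Its own levels and differences are therefore given as a description, with errors but without a test.

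The rats were Sprague Dawley males, and hippocampal RNA was sequenced from 19 of them. Del/+ rats (n = 4) carried 1 deleted chromosome and hence 1 copy of the interval, Dup/+ rats (n = 5) carried 1 duplicated chromosome and hence 3 copies, and Del/Dup rats (n = 4) carried both rearranged chromosomes and hence 2 copies, as did the wild-type rats (wt, n = 6). The rearrangements were made with CRISPR/Cas9 in an outbred stock and are germline alleles, and the founders behind the 2 lines were not given in the sources used here. One library, wt 5, is wild-type by its description but Dup/+ by its genotype entry, and it was counted as wt.

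The interval runs from Sult1a1 to Spn. It was cut in zygotes with Cas9 and a pair of guides, which are printed because they set the positions of the 2 edges, 1 of which lies at Sult1a1. Which of them cuts there is not stated outright in the sources used here. The sequences were those of the study's methods, and the first one contains a guide that the same methods name as 5′ for another rat line. Neither has a match, on either strand, among the 33469 promoter windows of the RefSeq table.

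cr595: gcaatctcacgtgtctgatgg

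cr598: gtgacatcgtgaccctgctgg

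SULT1A1 is a cytosolic phenol sulfotransferase. It moves a sulfonate group from the donor PAPS to small phenols, among them phenolic drugs, thyroid hormones and catecholamines, which generally makes them more soluble and less active. PAPS itself is made by the PAPS synthases Papss1 and Papss2, and the brain expresses several other cytosolic sulfotransferases, of which Sult4a1 is the best known neuronal member.

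In the gene order of the GRCr8 assembly, Sult1a1 was the first gene inside the interval and was read on the minus strand, with its end toward the flank. The first gene beyond it, Sgf29, was read on the plus strand, so both genes are transcribed toward the border between them. Inside the interval the next gene was Slx1b. The 250 bases before the Sult1a1 start (GRCr8 chr1:190706113-190706362, minus strand, RefSeq) are shown since they are the promoter side that faces the interior of the interval, with the GC box CCGCCC in capitals.

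Sult1a1: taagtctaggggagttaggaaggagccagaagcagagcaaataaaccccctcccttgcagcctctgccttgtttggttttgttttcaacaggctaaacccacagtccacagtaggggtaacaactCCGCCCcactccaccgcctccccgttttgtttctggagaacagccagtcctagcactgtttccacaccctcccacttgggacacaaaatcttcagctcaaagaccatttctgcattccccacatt

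The window held 1 match to CCGCCC, searched on both strands and placed 125 bases before the start, and this motif occurred in 30.5% of the 33469 windows of this length. It held no match to TATAAA, which occurred in 12.9% of windows, and none to CCAAT, which occurred in 34% (both strands). Its GC content was 51.2%, the same as the median of all windows. The matches are a description of the sequence only.

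Sult1a1 was lowly expressed, with 2884 reads in all 19 libraries together. Its level is expressed in counts-per-million (CPM) after scaling of the library sizes. In the 6 wt libraries the counts were 305, 238, 200, 195, 229 and 183 reads for wt 1 to wt 6, which correspond to 8.11, 7.41, 7.41, 6.68, 7.03 and 7.28 CPM. In Dup/+ 1 to Dup/+ 5 they were 155, 217, 116, 165 and 177 reads, or 6.40, 7.51, 6.93, 6.35 and 7.0 CPM. The wt and Dup/+ libraries overlapped over most of their ranges, and no Dup/+ library lay above the highest wt library.

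In Del/+ 1 to Del/+ 4 the counts were 99, 82, 131 and 111 reads, or 3.43, 3.36, 3.45 and 2.98 CPM. In Del/Dup 2 to Del/Dup 5 they were 69, 65, 72 and 75 reads, or 3.22, 3.40, 2.80 and 2.94 CPM. The 8 libraries with a deleted chromosome lay together at 2.80 to 3.45 CPM, and the 11 libraries without one lay at 6.35 to 8.11 CPM, with no value between.

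The mean level was 7.32 ± 0.477 CPM in wt (SD, n = 6), 6.84 ± 0.479 in Dup/+ (n = 5), 3.31 ± 0.218 in Del/+ (n = 4) and 3.09 ± 0.270 in Del/Dup (n = 4). In this order, wt and Dup/+ did not differ beyond their spread and neither did Del/+ and Del/Dup, whereas Dup/+ and Del/+ were separated. Counting error alone gave a 95% interval of 2.63 to 4.34 CPM for the library with the fewest reads (Del/Dup 3) and of 7.23 to 9.08 CPM for the one with the most (wt 1).

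**Figure D1:**
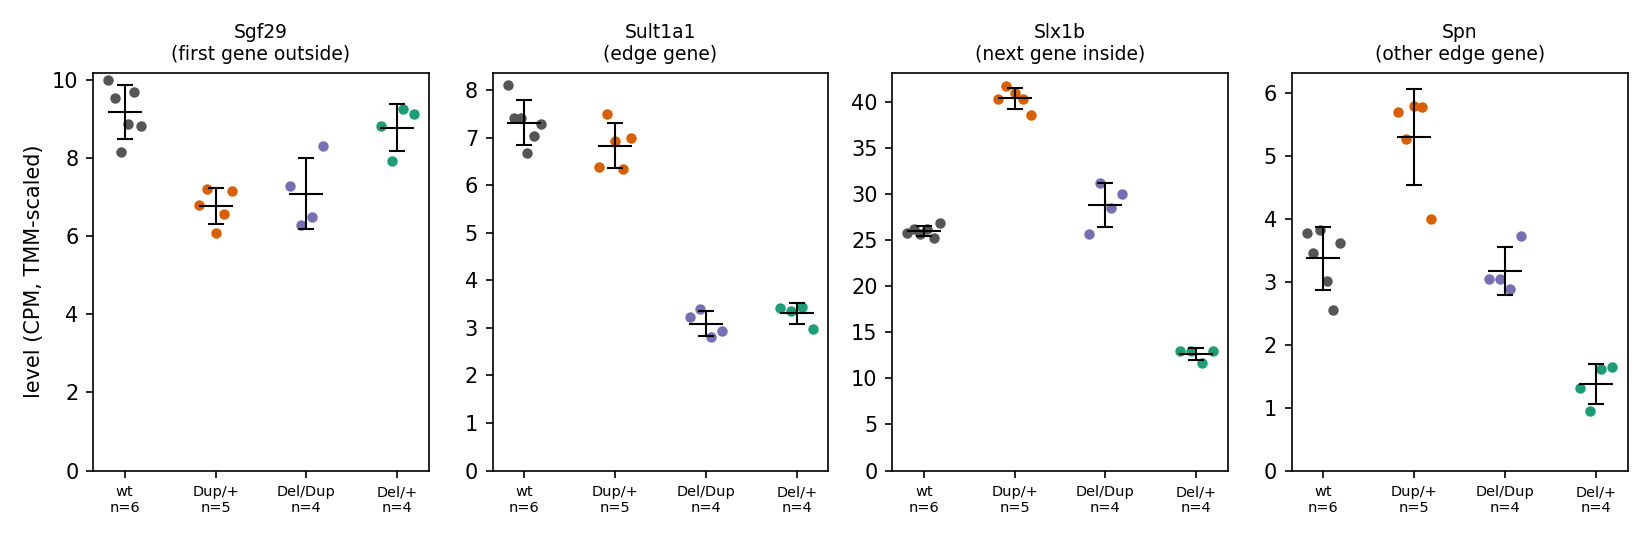
Level in CPM (vertical axis, starting at 0) of Sgf29, Sult1a1, Slx1b and Spn in each library (points) of the 4 genotypes, with the group mean and SD (bars). Sult1a1 in Del/Dup stayed at 2.80 to 3.40 CPM beside Del/+, while Slx1b and Spn in Del/Dup lay beside wt, and Sgf29 was lower in Dup/+.

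On the log2 scale, Sult1a1 in Del/+ differed from wt by -1.13 (SE 0.0851, 95% interval -1.31 to -0.96), a fold of 0.456. The difference of Dup/+ from wt was -0.10 (SE 0.0757, interval -0.26 to 0.06). Del/Dup differed from wt by -1.23 (SE 0.0883, interval -1.41 to -1.05). The cut site was not placed relative to the exons of Sult1a1 here, so whether a rearranged chromosome carries an intact copy of this edge gene was not determined, and the copy numbers above hold for the interval and not necessarily for Sult1a1.

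The 4 genotypes also show what changed when 1 chromosome was exchanged for another. A duplicated chromosome stood in the place of a wild-type one both in Dup/+ against wt and in Del/Dup against Del/+, and these comparisons share no library. The Sult1a1 level changed by -0.484 CPM (SE 0.290) in the first and by -0.213 CPM (SE 0.174) in the second. A deleted chromosome stood in the place of a wild-type one in Del/+ against wt and in Del/Dup against Dup/+. Del/+ lay 4.02 CPM (SE 0.223) below wt, and Del/Dup lay 3.75 CPM (SE 0.253) below Dup/+. On the log2 scale Del/Dup differed by -0.10 from Del/+ (SE 0.0977, interval -0.30 to 0.11) and by -1.13 from Dup/+ (SE 0.0916). Del/+ lay below Dup/+ by 3.53 CPM (SE 0.240), at a log2 difference of -1.03 (SE 0.0885). The reads of a gene add up over all its copies, so the counts do not show which copy made them. Fewer expressing cells and less RNA per cell cannot be told apart in bulk tissue either.

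The other genes of the interval served to show what the labelled copy number does elsewhere in the same libraries. Of 27 further genes that GRCr8 places from Sult1a1 to Spn, 23 passed the filter on low counts. Gdpd3, Tbx6, Zg16 and RGD1563217 did not, with 30, 134, 13 and 1 reads in total. The filter asks for enough reads in the number of libraries of the smallest group, whichever libraries these are. In each test a gene was called at an adjusted p under 0.05 over the 15440 genes tested.

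In Del/+ against wt all 23 tested genes were called lower, with a median log2 difference of -1.01 and a range of -1.28 to -0.83, where 0.466% of all genes tested were called lower and 0.304% higher. With a term for a high share of multi-mapped reads (over 55% of reads with several alignments) 17 of the 23 were called, and 19 among low-share libraries alone, where Del/+ is 1 library. In Dup/+ against wt 20 of the 23 were called higher (median 0.54, range 0.14 to 0.66), where 0.214% of all genes were called higher and 0.0583% lower. The 3 genes not called were Qprt, an enzyme of NAD synthesis, at 0.14 (adjusted p = 0.887), the synaptic vesicle gene Doc2a at 0.60 (adjusted p = 0.236) and the chromatin gene Pagr1 at 0.47 (adjusted p = 0.0698). The Sult1a1 value of -0.10 was below that of each of them.

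In Del/Dup against wt none of the 23 was called by edgeR (median -0.06, range -0.53 to 0.34), against 0.0453% of all genes called lower and 0.0453% called higher. At an unadjusted p under 0.05 there were 6 (26.1%, against 16.2% of all genes tested). DESeq2 called 1, against 1.1% of the 16305 genes to which it gave an adjusted p. Against Del/+, 22 of the 23 were called higher in Del/Dup (median 0.93, range 0.73 to 1.18), where 0.168% of all genes were called higher and 0.00648% lower, and the remaining gene was Qprt at 0.73 (adjusted p = 0.394). Against Dup/+, 18 of the 23 were called lower in Del/Dup (median -0.62), where 0.181% of genes were called lower and 0.136% higher. In Del/+ against Dup/+ all 23 were called lower (median -1.53), where 0.486% were called lower and 0.298% higher. The counts for Del/Dup against Dup/+ and for Dup/+ against wt moved under other settings. With a term for the share of multi-mapped reads, 5 of the 23 were called in Del/Dup against Dup/+, at a median log2 difference of -0.55 in place of -0.62 and a median SE of 0.160 in place of 0.0783. All Del/Dup libraries were of high share and all Dup/+ libraries of low share, so that this value is bridged by Del/+ 4, the single low-share Del/+ library. With wt 5 counted as Dup/+, 8 were called there and 7 in Dup/+ against wt, although the median of the 23 genes in wt 5 lay within the wt range.

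The change of pattern lay between 2 adjacent genes. Slx1b, which encodes the catalytic subunit of a structure-specific DNA endonuclease, was measured at 25.2 to 26.9 CPM in wt, 38.5 to 41.7 in Dup/+, 25.7 to 31.1 in Del/Dup and 11.7 to 13 in Del/+. The Dup/+ and Del/+ libraries each lay apart from all others, and only Del/Dup and wt overlapped. Its log2 difference from wt was -1.04 in Del/+ (SE 0.0514, adjusted p = 3.55e-11), 0.63 in Dup/+ (SE 0.0450, adjusted p = 5.89e-08) and 0.15 in Del/Dup (SE 0.0488, adjusted p = 0.178). Del/Dup was above Del/+ by 1.18 (SE 0.0557, adjusted p = 2.52e-11).

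Farther inward, Coro1a, an actin-binding protein of the coronin family, was called lower in Del/+ (-1.03, adjusted p = 2.91e-08) and higher in Dup/+ (0.58, adjusted p = 9.28e-05), and stood at -0.10 in Del/Dup (adjusted p = 0.50). Mapk3, which encodes the kinase ERK1, was at -0.95 in Del/+ (adjusted p = 2.40e-07), 0.57 in Dup/+ (adjusted p = 0.000224) and -0.06 in Del/Dup (adjusted p = 0.715). Both were called higher in Del/Dup than in Del/+, by 0.93 and 0.88 on the log2 scale.

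Spn, which encodes the leukocyte sialoglycoprotein CD43, marks the other edge and was, like Sult1a1, expressed at a low level. It was measured at 2.55 to 3.82 CPM in wt, 4.00 to 5.80 in Dup/+, 2.88 to 3.72 in Del/Dup and 0.943 to 1.64 in Del/+. All Dup/+ libraries were above all wt libraries, all Del/+ libraries were below them, and the Del/Dup libraries lay within the wt range. Its log2 difference was -1.23 in Del/+ (SE 0.162, adjusted p = 9.92e-05), 0.64 in Dup/+ (SE 0.137, adjusted p = 0.0445) and -0.08 in Del/Dup (SE 0.152, adjusted p = 0.808), and Del/Dup was above Del/+ by 1.14 (SE 0.177, adjusted p = 0.00126). The call in Dup/+ was near the threshold. It was lost when any of 14 of the 19 libraries was left out (log2 difference 0.57 to 0.68), all but Dup/+ 5, Del/Dup 5 and Del/+ 2, 3 and 4. The call in Del/+ was lost with a term for the share of multi-mapped reads (-1.01, adjusted p = 0.0874).

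**Figure D2:**
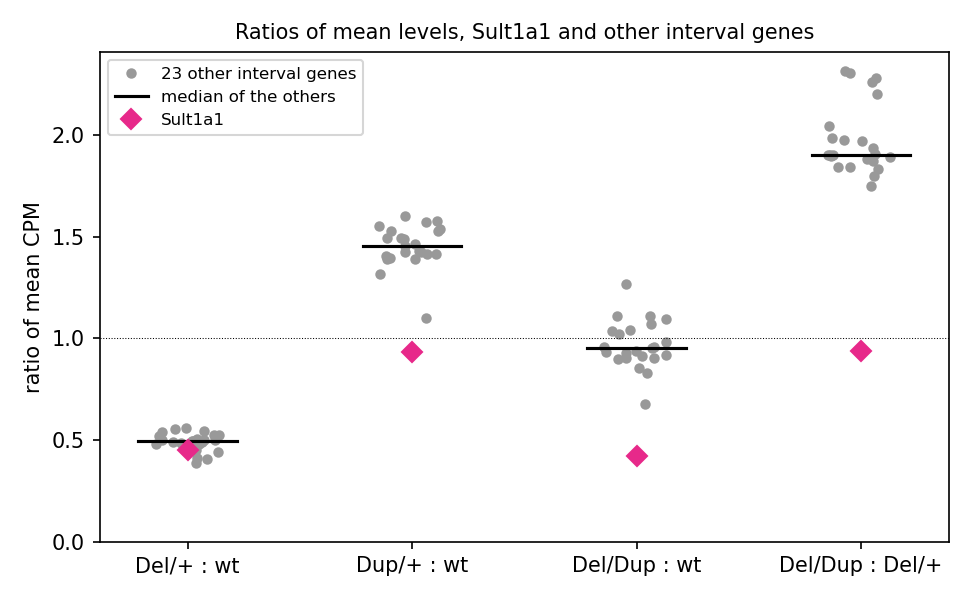
Ratio of mean CPM (vertical axis, starting at 0) for the 23 other tested interval genes (grey points, shifted sideways at random; black line, their median) and Sult1a1 (diamond) in 4 pairs of groups. Sult1a1 lay among the others for Del/+ to wt and below all of them in the other 3 pairs. The gene was chosen by its levels in these groups.

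The ratios of mean levels placed Sult1a1 against these genes gene by gene. From wt to Del/+ the ratio was 0.451 for Sult1a1 and 0.389 (Qprt) to 0.562 (Doc2a) for the others, with a median of 0.495. From wt to Dup/+ it was 0.934 for Sult1a1 and 1.10 (Qprt) to 1.60 (Kif22) for the others, with a median of 1.45. The Del/+ ratio of Sult1a1 was thus within the range of the others and the Dup/+ ratio was outside it, which is what the gene was chosen for.

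From wt to Del/Dup the ratio was 0.422 for Sult1a1, against 0.680 (Qprt) to 1.27 (Doc2a) for the others, with a median of 0.952. From Del/+ to Del/Dup it was 0.936 (SE 0.0512) for Sult1a1 and 1.75 (Qprt) to 2.31 (Pagr1) for the others, with a median of 1.90. With 1 library left out at a time this ratio stayed at 0.904 to 0.965 for Sult1a1 and the median of the others at 1.88 to 1.99. The step from Del/+ to Dup/+ was 1.07 times the Del/+ level for Sult1a1, and 1.59 (Mvp) to 2.86 (Spn) times for the others, with a median of 1.90. Since Sult1a1 was chosen by its levels in all groups, and the ratios share group means, they are a description and no separate support.

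**Figure D3:**
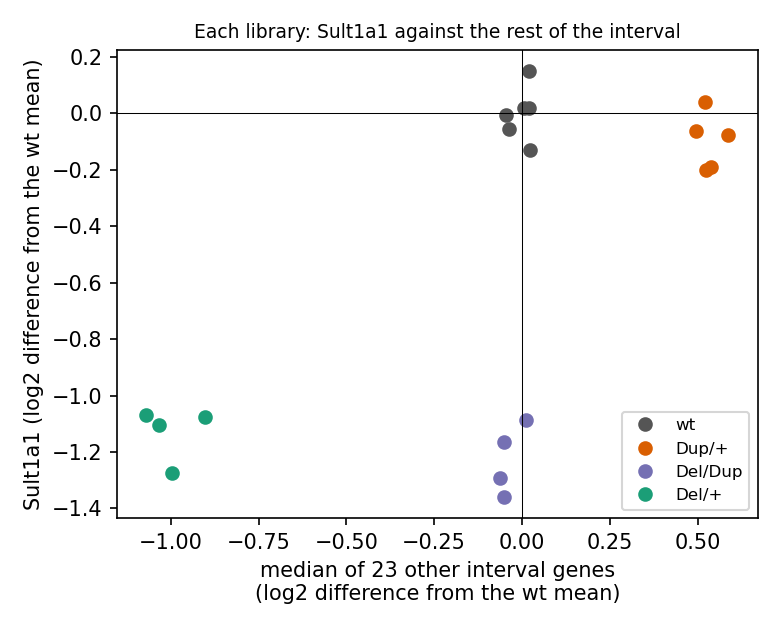
Each point is 1 library, with the median log2 difference of the 23 other interval genes from the wt mean on the horizontal axis and that of Sult1a1 on the vertical axis, coloured by genotype. Del/Dup libraries lay beside wt horizontally (-0.06 to 0.01) and beside Del/+ vertically (-1.36 to -1.09).

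Within single libraries the same split was seen. The median of the 23 other genes, as a log2 difference from the wt mean, was -0.04 to 0.02 in the wt libraries, 0.50 to 0.59 in Dup/+, -0.06 to 0.01 in Del/Dup and -1.07 to -0.90 in Del/+. The groups were ordered as their labelled copy numbers, wt 5 lay among the other wt libraries, and only wt and Del/Dup overlapped. On the same scale Sult1a1 was at -0.13 to 0.15 in wt, -0.20 to 0.04 in Dup/+, -1.36 to -1.09 in Del/Dup and -1.27 to -1.07 in Del/+. Here wt overlapped with Dup/+ and Del/+ with Del/Dup, so that the libraries fell into 2 clusters for Sult1a1 and into 3 for the rest of the interval.

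Outside the interval, Sgf29 is the first gene beyond Sult1a1 and encodes a subunit of the SAGA histone acetyltransferase complex that reads methylated lysine 4 of histone H3. In wt 1 to wt 6 it was measured at 10.0, 9.53, 8.15, 8.87, 9.70 and 8.84 CPM, and in Dup/+ 1 to Dup/+ 5 at 6.81, 7.20, 6.09, 6.58 and 7.16 CPM. In Del/Dup 2 to Del/Dup 5 it was at 7.29, 6.28, 6.51 and 8.31 CPM, and in Del/+ 1 to Del/+ 4 at 8.82, 7.92, 9.27 and 9.14 CPM. All Dup/+ libraries were below all wt and all Del/+ libraries, and 3 of the 4 Del/Dup libraries were as well.

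Sgf29 was called lower in Dup/+ than in wt, by a log2 difference of -0.43 (SE 0.0801, adjusted p = 0.0141). Del/Dup lay at -0.37 relative to wt (SE 0.0858, adjusted p = 0.0872), and Del/+ at -0.06 (SE 0.0825, adjusted p = 0.731). Between Del/Dup and Dup/+ it was 0.07 (SE 0.0907, adjusted p = 0.777), between Del/Dup and Del/+ -0.31 (SE 0.0930, adjusted p = 0.293), and between Del/+ and Dup/+ 0.37 (SE 0.0877, adjusted p = 0.0481). Del/Dup, which also carries a duplicated chromosome, was called against no other group in this fit. The lower level in Dup/+ was called against both wt and Del/+. The call against Del/+ was lost without any of 14 of the 19 libraries, all but wt 1, wt 3 and Del/Dup 2, 3 and 5 (log2 difference 0.34 to 0.42). The call against wt was near the threshold. It was lost without wt 1 (adjusted p = 0.0529), without Dup/+ 3 (adjusted p = 0.0548) or without Dup/+ 4 (adjusted p = 0.0515). It was also lost with wt 5 counted as Dup/+ (-0.31, adjusted p = 0.459), although wt 5 lay among the wt libraries by the other interval genes. In Del/Dup the difference from wt passed the threshold with DESeq2 (-0.37, adjusted p = 0.0201) or without Del/Dup 5 (-0.45, adjusted p = 0.0445).

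Farther out on the Sult1a1 side, 11 of 14 genes passed the filter, while Nupr1, with 0 reads, and Il27, with 27, were among those that did not. In Del/+ against wt none of the 11 was called by edgeR (median -0.06, range -0.53 to 0.07), where 0.466% of all genes were called lower and 0.304% higher. DESeq2 called 2, against 6.94% of the 9241 genes to which it gave an adjusted p. An unadjusted p under 0.05 was found for 3 of the 11 in Del/+ against wt (27.3%, against 18.4% of all genes), for 4 in Dup/+ (36.4% against 8.94%) and for 4 in Del/Dup (36.4% against 16.2%). It was found for 7 in Del/Dup against Del/+ (63.6% against 8.48%), where none was called at the adjusted threshold, for 3 in Del/Dup against Dup/+ (27.3% against 13.5%) and for 4 in Del/+ against Dup/+ (36.4% against 13.5%). In Dup/+ against wt Sgf29 was the single call (median 0.00, range -0.43 to 0.24), where 0.0583% of all genes were called lower and 0.214% higher. In Del/Dup against wt the single call was Eif3c, a subunit of a translation initiation factor, at -0.27 (SE 0.0415, adjusted p = 0.0129). Of all genes 0.0453% were called lower there and 0.0453% higher. Eif3c was also lower in Del/Dup than in Dup/+ (-0.31, SE 0.0431, adjusted p = 0.000471), where 0.181% of all genes were called lower and 0.136% higher. The Eif3c call against wt was lost without Del/Dup 2 (adjusted p = 0.0503) or Del/Dup 4 (adjusted p = 0.0724), and both of its calls were lost with a term for the share of multi-mapped reads (-0.14 and -0.19, adjusted p = 0.481 and 0.381). Spns1, a lysosomal phospholipid transporter, was higher in Del/Dup than in Dup/+ (0.33, adjusted p = 0.0413), a call that was lost without any of 9 of the 19 libraries, namely wt 4, Dup/+ 1, 3, 4 and 5, Del/Dup 2, 4 and 5 and Del/+ 2 (log2 difference 0.29 to 0.35).

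On the far side of Spn, 12 of 12 genes were tested and edgeR called none in any of the 6 comparisons, with 0 to 3 of them at an unadjusted p under 0.05 (0% to 25%, against 8.48% to 18.4% of all genes). DESeq2 called 1 of them in Del/Dup against wt, against 1.1% of the 16305 genes to which it gave an adjusted p. Their median log2 difference from wt was 0.01 in Del/+, -0.03 in Dup/+ and 0.01 in Del/Dup.

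Other genes of sulfonation were examined to see whether they differed in the groups in which Sult1a1 was low. Of 29 such genes in the files, 19 were tested, and edgeR called none in any of the 6 comparisons, with 0 to 4 at an unadjusted p under 0.05. That is 0% to 21.1% of the list, against 8.48% to 18.4% of all genes tested. DESeq2 called 1 of them, in Dup/+ against wt, where it called 0.446% of the 17246 genes to which it gave an adjusted p. The median log2 difference from wt was -0.00 in Del/+, 0.00 in Dup/+ and -0.01 in Del/Dup, close to the median of all genes.

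Among the cytosolic sulfotransferases, Sult4a1 was measured at 297 ± 11.6 CPM in wt and 294 ± 11.6 in Del/Dup. Its log2 difference from wt was -0.00 (SE 0.0392) in Del/+, -0.03 (SE 0.0368) in Dup/+ and -0.01 (SE 0.0392) in Del/Dup, and its libraries overlapped between all groups. Sult1d1, which also acts on catechols in rodents, was at 11.5 ± 1.92 CPM in wt and 11.8 ± 1.30 in Del/+ (log2 difference 0.04, SE 0.117). Sult2b1, a hydroxysteroid sulfotransferase, was at 5.07 ± 0.184 CPM in wt and 5.19 ± 0.929 in Del/+ (0.03, SE 0.117). Sult5a1 was at 2.90 ± 0.724 and 2.72 ± 0.587 CPM (-0.09, SE 0.170). The remaining members were at or near the limit of detection: Sult1e1 and Sult2a2 had 0 reads in 19 libraries, Sult1b1, Sult1c2 and Sult1c3 had 1, 2 and 3, and Sult1c2a and Sult6b1 had 43 and 46. Short reads that align equally well to 2 members are not counted, so the level of members with near-identical stretches is uncertain.

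The 2 enzymes that make the donor were not called in any comparison. Papss1 was at 81.4 ± 5.74 CPM in wt, and its log2 difference was 0.01 (SE 0.0539) in Del/+, 0.06 (SE 0.0508) in Dup/+ and -0.07 (SE 0.0545) in Del/Dup. Papss2 was at 13.2 ± 2.12 CPM in wt, with -0.05 (SE 0.138), 0.06 (SE 0.131) and -0.12 (SE 0.142). The widest difference in the list was that of the sulfate transporter Slc13a4 in Del/Dup against wt (1.10, SE 0.397, adjusted p = 0.206), a gene that choroid plexus and meninges also express.

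**Figure D4:**
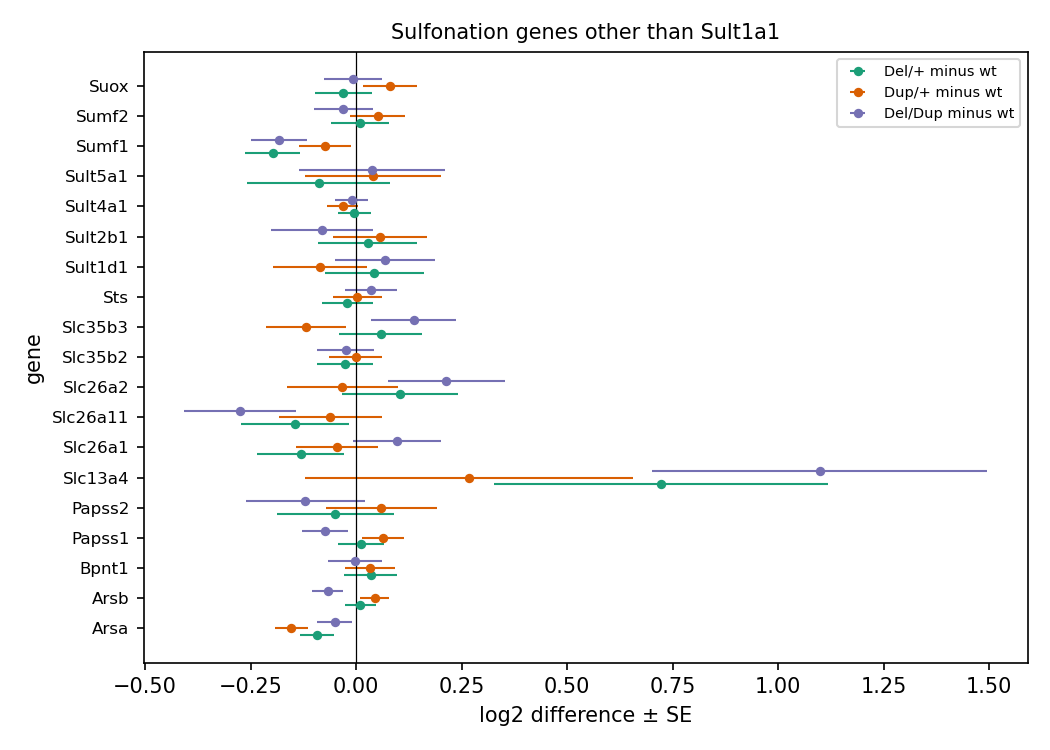
Log2 difference from wt with its SE (horizontal axis) for the 19 tested sulfonation genes other than Sult1a1, in Del/+ (green), Dup/+ (orange) and Del/Dup (violet). All values apart from those of Slc13a4 lay between -0.28 and 0.21.

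Enzymes that conjugate or degrade similar substrates gave no call either. Of 18 genes, 17 were tested, and edgeR called none in the 6 comparisons, with 0 to 4 at an unadjusted p under 0.05. The 4 of 17 (23.5%) were in Del/+ against wt, where 18.4% of all genes passed that threshold. DESeq2 called 1 of the list there, and 6.94% of the 9241 genes to which it gave an adjusted p. Maoa, a monoamine oxidase, was at 71.0 ± 3.10 CPM in wt and 72.7 ± 3.52 in Del/+.

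Tissue composition was recorded beside these values from 9 lists of cell type markers. The 6 hippocampal neuron markers summed to 4954 to 6454 CPM over the 19 libraries, with no marker called in any group against wt. The 6 choroid plexus markers summed to 3.69 to 35.0 CPM in wt, 7.43 to 404 in Dup/+, 41.6 to 1206 in Del/Dup and 6.60 to 1248 in Del/+, with none of the 6 called against wt. Of the 4 endothelial markers, Cldn5 had 0 reads. Of 4 blood markers, 2 were called higher in Dup/+ than in wt (median log2 difference 0.57), against 0.214% of all genes. The correlation of Sult1a1 with the list sums within groups over 19 libraries was between -0.49 (oligodendrocytes) and 0.37 (endothelium), given as a description. The part of cell composition in the Sult1a1 level was not tested.

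The share of multi-mapped reads was over 55% in all Del/Dup libraries and in Del/+ 1 to Del/+ 3, and lower in Del/+ 4, wt and Dup/+. Sult1a1 was at 3.36 to 3.45 CPM in the 3 Del/+ libraries of high share and at 2.98 in Del/+ 4. Del/+ 4 was below every wt and Dup/+ library of the same kind, at a log2 difference from wt of -1.28 without the high-share libraries, a comparison that rests on 1 Del/+ library. Among high-share libraries alone, Del/Dup differed from Del/+ by -0.14.

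Genes outside the interval list were ranked by Pearson's r of their log2 CPM with that of Sult1a1 over the 19 libraries, which fall into 2 clusters of Sult1a1 level. The cluster of low level held the libraries with a deleted chromosome, and 7 of these 8 and none of the other 11 libraries had a high share of multi-mapped reads, so that r cannot be assigned to either. The 5 with the highest r were Adprh (0.88), a copy of the RNA family RF00100 (0.87), Pcsk2 (0.86), Eif3c (0.83) and Kif3c (0.83). The lowest were Oxnad1 (-0.86), Cd9 (-0.84) and LOC100364769 (-0.83). The RF00100 copy and LOC100364769 were not placed in GRCr8, so their position relative to the interval was not known. Adprh, an ADP-ribosylarginine hydrolase, was at 47.8 CPM in wt, 48.2 in Dup/+, 43.8 in Del/+ and 43.3 in Del/Dup, a far smaller step than that of Sult1a1. The RF00100 copy, with 3 to 31 reads a library, was at 0.695 CPM in wt, 0.667 in Dup/+, 0.330 in Del/+ and 0.221 in Del/Dup. Cd9, a tetraspanin, was at 43.7 CPM in wt, 47.3 in Dup/+, 57.5 in Del/+ and 53.1 in Del/Dup, values that its choice by r already reflects. The 5 oligodendrocyte markers summed to a median of 5133 CPM in wt, 5511 in Dup/+, 6379 in Del/+ and 6137 in Del/Dup, with none of them called against wt, and their part in the Cd9 level was not tested. The interval genes themselves had r from 0.34 (Doc2a) to 0.74 (Sez6l2). On deviations from the group means the 5 highest were AABR07028013.1 (0.81), Aplp2 (0.79), Vps26a (0.76), Rec114 (0.76) and Elk1 (0.75).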

How the data were processed

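Hippocampal RNA of 19 rats was sequenced as short single-end reads, which the authors aligned with Hisat2 to the rat assembly rn6 and counted with HTSeq-count (versions not given in the sources used here). The protocol in the labels describes removal of rRNA, whereas the molecule field names polyA RNA, and this was not settled. The deposited files used here hold whole-number read counts by Ensembl gene, 1 table a library, with totals that differ between libraries. They were treated as raw counts, although the study speaks of normalized ones, and 5 summary lines of the counting program were left out of library sizes and tests. They hold the share of reads without a gene (6.94% to 16.1%), ambiguous reads (0.142% to 0.334%) and multi-mapped reads (40.1% to 76.3%). Totals over genes were 16191192 to 38760645 reads per library, and no replicate pair of 37 had counts that agreed within sampling noise.

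Of 24345 genes with a read, 15440 passed filterByExpr of edgeR 4.0.16 (R 4.3.3). TMM factors (trimmed mean of M values) scaled the library sizes, and CPM and log2 CPM (prior count 2) were computed from the counts. Differences came from 1 quasi-likelihood fit over all 19 libraries with a mean for each genotype, with Benjamini-Hochberg adjustment over all genes tested and a threshold of 0.05. The SE is that of the unshrunk coefficient. DESeq2 1.42.0, other scalings, filters and designs were alternatives, and the model was checked on simulated counts. The study describes the wt rats as littermates of the carriers, but the labels tie no library to a litter or preparation day. The fit therefore took the rats as independent and could not account for kinship, and p-values measure the spread between these rats. Counting intervals are exact Poisson intervals and cover counting error only.

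Groups and replicate numbers came from the description of each sample. Sult1a1 and the lists of genes were chosen with earlier results of these data known. Named genes were Sult1a1, members of the lists, and the 5 highest and 3 lowest in correlation with Sult1a1, plus the 5 highest on deviations from group means. Gene order was taken from GRCr8 without its coordinates, apart from the promoter window. The interval list held 10 further genes that GRCr8 did not place inside, of which 7 were tested, and these entered only an alternative.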

Additional observations from a re-analysis of the deposited data

Results flagged for a closer look

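In 60 groups of 4 to 6 libraries examined for a library far from the others (Sult1a1, the neighbouring and edge genes, 5 sulfonation genes and the interval median, each in 4 genotypes), 2 were found, and chance gives about 1 in 20 groups. Slx1b in Del/+ 3 was at 11.7 CPM, with the nearest Del/+ library at 13 CPM. The median log2 difference of the other interval genes from the wt mean was 0.011 in Del/Dup 3, with the nearest Del/Dup library at -0.05. No library stood apart in this way for Sult1a1.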

How the results depend on the processing

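Sult1a1 kept the sign of its difference under each of the 28 or 29 alternatives run for a comparison. All alternatives reuse the libraries by which the gene was chosen, and 19 of the alternatives leave 1 library out. The kept sign is therefore a description and no separate support. In the main fit Sult1a1 had no established direction for Dup/+ minus wt (interval -0.26 to 0.06) or Del/Dup minus Del/+ (interval -0.30 to 0.11). Del/+ minus wt ranged from -1.28 to -1.08, Dup/+ minus wt from -0.14 to -0.06, Del/Dup minus wt from -1.42 to -1.18, and Del/Dup minus Del/+ from -0.15 to -0.05. More than the spread between replicates, it moved only with a term for the multi-mapped share (-1.28 for Del/+ minus wt, -1.42 for Del/Dup minus wt, -1.32 for Del/Dup minus Dup/+, -1.18 for Del/+ minus Dup/+) and among low-share libraries (-1.28 and -1.18 for Del/+ minus wt and minus Dup/+). By the median of the other interval genes, wt 5 lay at -0.037, within the wt range (-0.045 to 0.023) and apart from Dup/+ (0.50 to 0.59). Counting wt 5 as Dup/+ left Sult1a1 at -0.10 for Dup/+ minus wt. That setting lowered the interval genes called to 7 (of 20) for Dup/+ and to 8 (of 18) for Del/Dup against Dup/+, and the term for the multi-mapped share lowered the latter to 5. On the Sult1a1 flank the count of calls fell to 0 in Dup/+ (wt 5 as Dup/+), to 0 in Del/Dup (replicate block, term for the multi-mapped share, 2 groups only), to 1 (library size alone, wt 5 as Dup/+) or 0 (term) in Del/Dup against Dup/+, and to 0 in Del/+ against Dup/+ (library size alone, no filter, wt 5 as Dup/+, term, 2 groups only, low share only). DESeq2 raised it to 2 in Del/+, 2 in Del/Dup and 2 in Del/+ against Dup/+, where it called 6.94%, 1.1% and 1.56% of the genes with an adjusted p. DESeq2 also called 1 gene where edgeR called 0 among the conjugating enzymes (Del/+), the sulfonation genes (Dup/+, share 0.446%), and the interval and Spn-flank genes (Del/Dup). With 1 library left out, these flank counts were 0 to 1 in Dup/+, 0 to 2 in Del/Dup, 1 to 2 in Del/Dup against Dup/+ and 0 to 2 in Del/+ against Dup/+, and the interval count in Del/Dup was 0 to 2 (1 without wt 5, 2 without Del/Dup 3). Deviations of same-numbered libraries of different groups correlated at -0.27 to 0.14 (24 pairs, median 0.027). For differently numbered libraries this was -0.29 to 0.33 (110 pairs, median 0.009). Whether same-numbered libraries share a litter or day was not tested. The replicate block gave -1.14 for Sult1a1 in Del/+ and -0.10 in Dup/+, and 22 and 17 interval genes called. It ended the calls of Spn in Dup/+ (adjusted p = 0.117) and against Dup/+ in Del/Dup (0.142) and of Eif3c in Del/Dup (0.0578), and moved no other count by over 1.5 times. The subsets by multi-mapped share and an interval list with the members not placed by GRCr8 (25 called in Del/+, 21 in Dup/+, 23 in Del/Dup against Del/+) were chosen after seeing the data. The cause of these changes was not tested. The term for the multi-mapped share rests on Del/+ 4 alone wherever it joins high-share to low-share groups. Sult1a1 had 65 to 75 reads a library in Del/Dup, which limits the precision of its level.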
